A study of Mus musculus with 9 samples.

Results

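Livers of C57BL/6 mice fed a high fat diet were compared with livers of C57BL/6 mice fed a normal diet, both given vehicle, after 9 weeks. The samples were chosen by their labels: 3 high fat vehicle libraries and 3 normal diet vehicle libraries, 6 of the 9 libraries in the series, with every gene in the table. The remaining 3 libraries came from C57BL/6 mice given B-LGND2 (a code name) beside the high fat diet. They were not part of the contrast between the diets. They entered the filter on low counts, the scaling, the means over libraries and the shared estimate of the spread. No transgene, deletion or genotype beyond the strain is named for any group, and the labels used here do not state the doses, the composition of the diets, the sex and age of the mice and the clock hour at which livers were taken. The labels do not say whether the mice of a group shared a cage, litter or day, so the p-values measure only the spread between these samples.

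The liver takes up dietary fat and sugar, makes and exports lipids, glucose and bile acids, and clears foreign and endogenous compounds through cytochromes P450 (oxidation) and transferases (conjugation). Many of these pathways are set by transcription factors that sense what arrives from the gut: the nuclear receptors PXR and CAR for foreign compounds and bile acids, PPAR alpha for fatty acids, and SREBP2, which drives sterol synthesis when membrane cholesterol is low. Insulin, glucocorticoids and the circadian clock act on the same genes, and a high fat diet is widely used in C57BL/6 mice to produce fatty liver and insulin resistance.

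The 6 libraries held between 5845924 and 8116744 counts each. All 6 carried hepatocyte transcripts at a similar level, with the 10 hepatocyte markers summing to between 78200 and 89750 CPM (counts divided by the library size, with sizes scaled by the trimmed mean of M-values). The composition of the libraries differed between the diets. Annotated ribosomal RNA took 3.16, 3.75 and 3.35% of counts in the normal diet libraries, against 1.44, 1.27 and 0.901% in the high fat libraries, and small RNA genes took 0.126 to 0.135% and 0.0216 to 0.0370%, respectively. Pseudogenes took 6.77% ± 0.780 in the former and 5.40% ± 0.693 in the latter (mean ± SD, n = 3 each). None of these 3 shares overlapped between the diets, and in each the exact two-sided permutation test gave p = 0.1, the smallest that 3 libraries against 3 allow. Longer transcripts were relatively more abundant in the high fat libraries: the rank correlation across genes of transcript length with how far each log level lay from its mean over libraries was 0.328, 0.367 and 0.339 for the high fat libraries and 0.191, -0.164 and -0.520 for the normal diet libraries, a description of the libraries across genes that are not independent replicates. Normal diet replicate 1 stood apart in mitochondrially encoded transcripts, at 12.7% of counts where the other vehicle libraries held 3.69 to 6.12%. The part of these differences in the gene results was not tested, but a fit with offsets for transcript length and GC content was run, and its value stands beside each named gene whose call it ends.

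**Figure D1:**
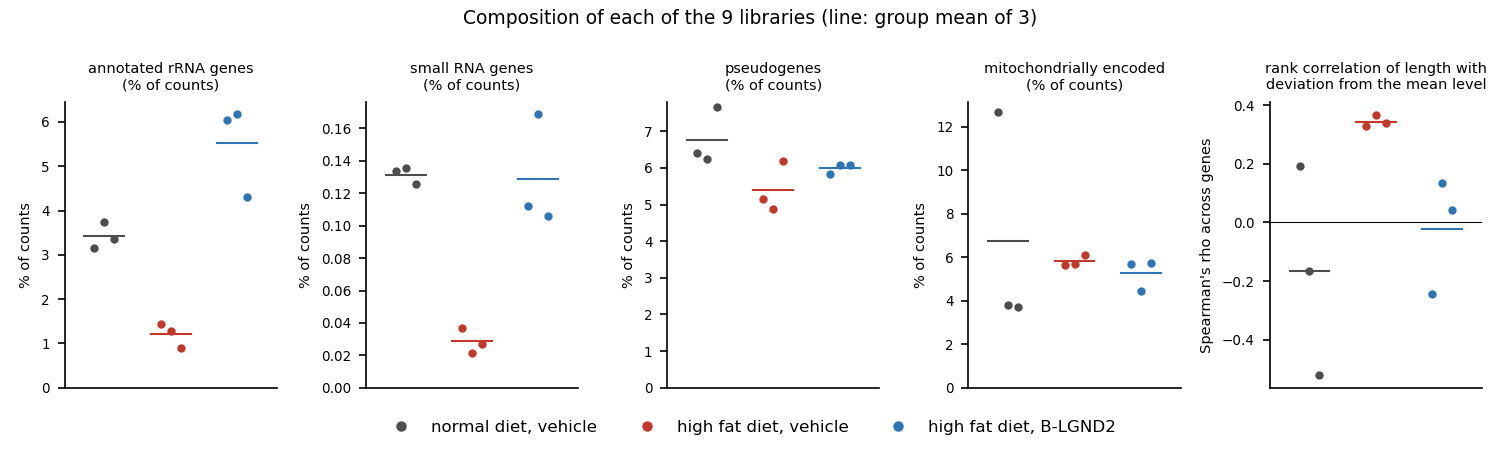
Share of counts in 4 gene classes (%, axes from 0) and rank correlation of transcript length with the distance of log levels from their mean, for each of the 9 libraries; points are libraries and lines are means of 3. The 3 high fat vehicle libraries (red) hold 0.901 to 1.44% ribosomal RNA counts, below all normal diet libraries (grey), and normal diet replicate 1 holds 12.7% mitochondrially encoded counts.

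Between the diets, 362 of 12102 genes (2.99%) differed at an adjusted p under 0.05 by edgeR (quasi-likelihood test, Benjamini-Hochberg adjustment): 182 (1.5%) were higher and 180 (1.49%) lower on high fat diet. These genes are called higher or lower here, and "rose" and "fell" are used only of them. Every count of called list members below stands beside these shares of all genes. The libraries of the diets did not overlap in 3647 genes (30.1%), 1861 higher (15.4%) and 1786 lower (14.8%), so a lack of overlap by itself was common in these data. Protein-coding genes made up 168 of the higher and 124 of the lower calls. The median transcript length was 4562.5 bases in the former, 1997.5 bases in the latter and 3426 bases over all protein-coding genes tested. The median log2 fold change over all genes tested was 0.01, with quartiles of -0.37 and 0.37. Without scaling beyond the library totals it was 0.17, and 260 genes were then called higher and 98 lower (72.6% higher, against 50.3% with scaling).

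How many genes were called depended on single libraries. Leaving out normal diet replicate 1 raised the number to 1860, and leaving out 1 of the other 5 vehicle libraries lowered it to between 35 and 89. In all 9 fits that left out 1 library, 23 genes (0.19%) kept their call. Among them, 9 protein-coding genes were higher on high fat diet: Per1, Mug1, Mfsd2a, Lpin1, Epha2, Acot11, Rgs16, Zbtb16 and Gna14. The lower ones were the protein-coding Cyp3a11, Lars2, Cyp2c55, Cyp4a12a, Lpl, Gstm3, Ccl9, Csad and Htatip2, with 4 RNA genes of other classes and 1 pseudogene. These 23 are the calls that no single library decides, and the paragraphs on each pathway say which of the genes they name belong to them.

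**Figure D2:**
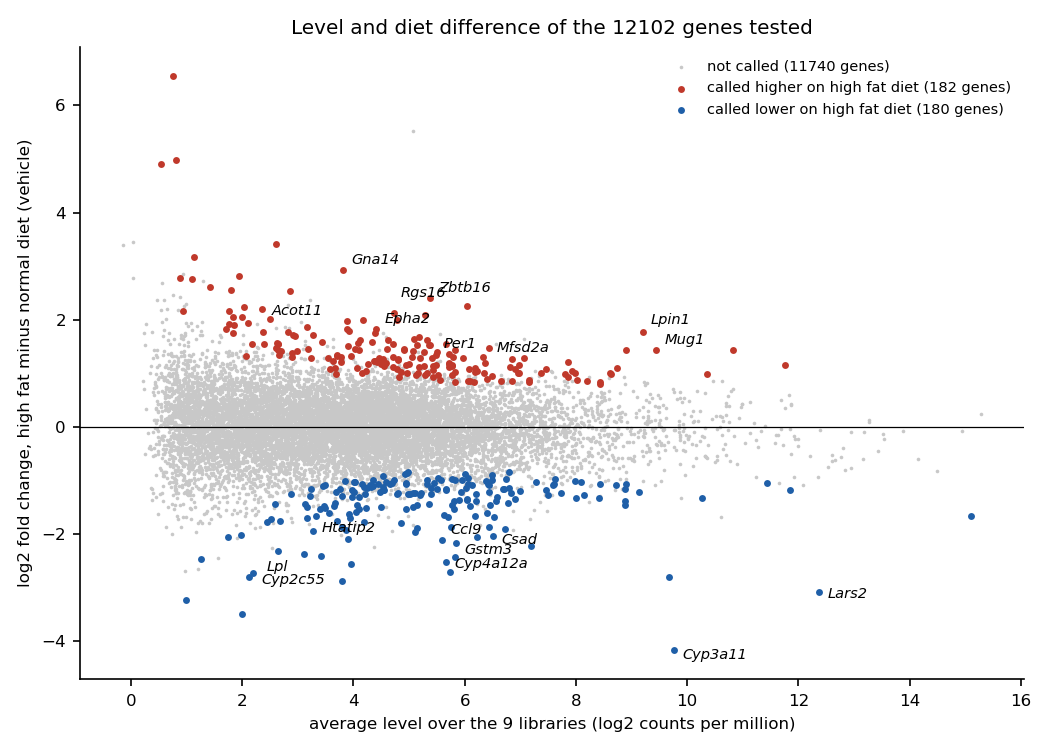
Log2 fold change of high fat over normal diet against the average log2 CPM of the 9 libraries, 1 point per gene. The 182 genes called higher are red, the 180 called lower blue and the others grey; Cyp3a11 has the lowest value, -4.18.

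**Figure D3:**
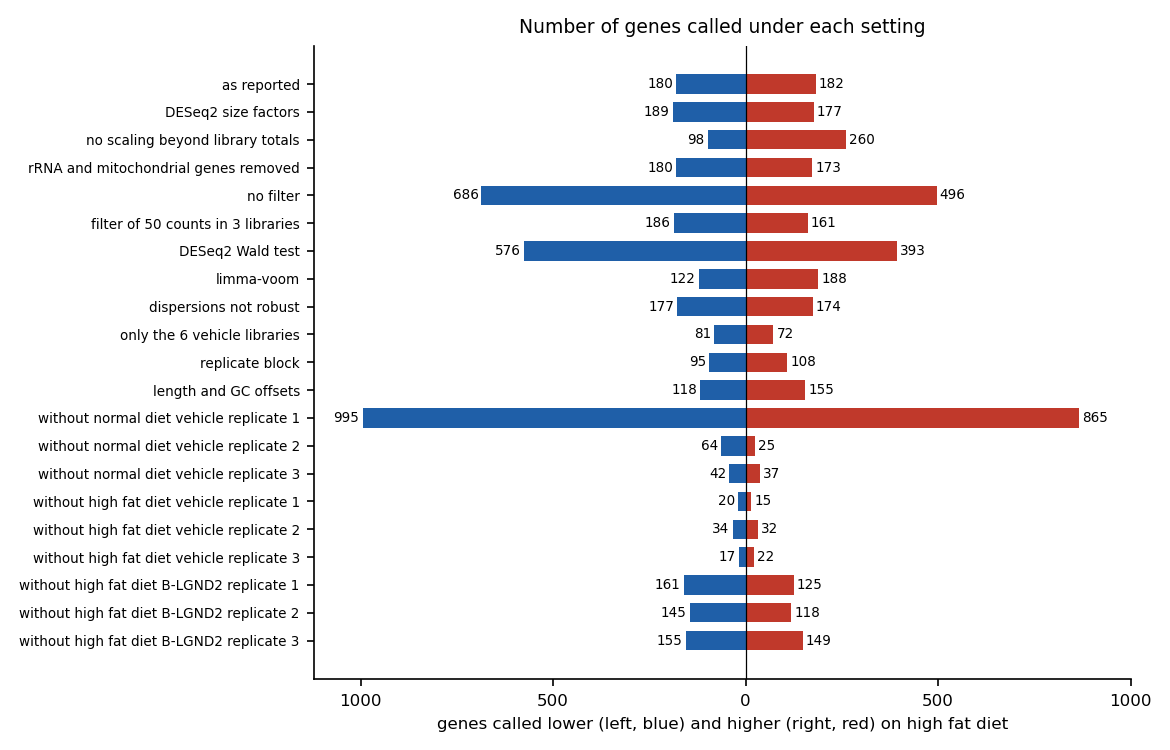
Number of genes called lower (left, blue) and higher (right, red) on high fat diet as reported and under each alternative setting (bars start at 0). Without normal diet replicate 1 the bars reach 995 lower and 865 higher genes, and without any 1 other vehicle library they stay at 64 lower and 37 higher or fewer.

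Transcripts of a few members of several P450 families were lower on high fat diet. Of 40 tested genes of phase I oxidation 6 fell and 1 rose (1.49% and 1.5% of all genes), with a median log2 fold change of -0.17. Cyp3a11, the main drug-oxidizing P450 of mouse liver, stood at 2335, 1893 and 3050 CPM on normal diet and at 179, 108 and 115 CPM on high fat diet, an 18.1-fold fall (log2 fold change -4.18, SE 0.29, edgeR adjusted p = 9.70e-07). Every high fat library was far below every normal diet library. Its relatives Cyp3a59 (13.8 ± 4.68 to 2.74 ± 0.899 CPM) and Cyp3a25 (157 ± 33.1 to 74.2 ± 3.90 CPM) fell as well. So did 2 members of the Cyp2c family: Cyp2c55 (9.51, 8.60 and 13.8 CPM against 2.64, 1.20 and 0.976) and Cyp2c68 (29.1 ± 7.98 to 13.3 ± 2.67 CPM). Cyp2r1, a vitamin D 25-hydroxylase, fell from 14.5 ± 3.29 to 5.08 ± 0.361 CPM. The exception was Cyp2b9, which rose, with 0.156, 0.165 and 3.87 CPM on normal diet and 22.8, 18.9 and 5.85 CPM on high fat diet (edgeR adjusted p = 0.0455). The libraries of Cyp2b9 were far apart within both groups, and DESeq2 did not call it (adjusted p = 0.09). Near 0 in most normal diet libraries, Cyp2b9 passed the filter on low counts through other libraries, so its call is a description. Cyp2e1, which oxidizes ethanol and small molecules, stood at 9452 ± 1318 and 10370 ± 1060 CPM (log2 fold change 0.13, edgeR adjusted p = 0.763), and the receptor genes Nr1i2 (PXR) and Nr1i3 (CAR) stood at log2 fold changes of 0.22 and 0.95 (edgeR adjusted p = 0.561 and 0.0826).

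Cyp3a11 and Cyp2c55 kept their calls in all 9 fits without 1 library. Cyp2c55 had only 16, 8 and 7 counts on high fat diet. It passed the filter on low counts through the normal diet libraries, so its call is a description. Over the list, 9 genes were lower and 1 higher without normal diet replicate 1, and 2 to 5 were lower without 1 other vehicle library. With length and GC offsets, 4 were lower and the median was -0.06. Cyp3a25, Cyp2c68 and Cyp2b9 were then not called (edgeR adjusted p = 0.0731, 0.122 and 0.0586). Cyp2b, Cyp2c and Cyp3a genes have near-identical neighbours, and how reads were divided among them is uncertain. In bulk liver, fewer cells of a type and less RNA per cell cannot be told apart, here and in all that follows. The 300 bases around the start of Cyp3a11 (RefSeq, GRCm38.p6, from 250 bases before to 50 after the start) are shown because no other gene fell as far. Several motifs were searched on both strands, and the window held only the forkhead motif (TGTTTAC), marked in capitals. It was found in 1 of the 7 called genes of this list, and 3.65% of all 32851 such windows hold it.
Cyp3a11 (chr5:145879805-145880104, minus strand): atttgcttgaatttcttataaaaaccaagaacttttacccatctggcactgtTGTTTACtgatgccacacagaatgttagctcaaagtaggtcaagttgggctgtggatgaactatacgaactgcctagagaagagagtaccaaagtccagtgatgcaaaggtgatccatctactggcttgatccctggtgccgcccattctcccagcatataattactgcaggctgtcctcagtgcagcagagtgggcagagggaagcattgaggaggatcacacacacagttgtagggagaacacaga

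Conjugation genes formed the list with the most calls: 11 of 45 phase II and export genes fell and none rose (1.49% and 1.5% of all genes). The median was -0.47. Glutathione transferases of the mu class led them. Gstm3 stood at 91.9, 105 and 95.7 CPM on normal diet and at 22.9, 22.3 and 19.2 CPM on high fat diet (4.53-fold lower, log2 fold change -2.18, SE 0.24, edgeR adjusted p = 1.93e-04). Both groups were tight and far apart. Gstm1 (1576 ± 267 to 630 ± 68.4 CPM), Gstm2 (35.1 ± 10.7 to 12.4 ± 0.206), Gstm4 (85.9 ± 16.4 to 32.9 ± 2.50) and Gstm6 (115 ± 23.0 to 48.2 ± 7.23) fell by 2.39- to 2.82-fold. Gsta4, which clears the lipid peroxidation product 4-hydroxynonenal, Gstt2 of the theta class and the membrane-bound Mgst1 fell 2.33-, 1.94- and 2.06-fold. Of the UDP-glucuronosyltransferases, which add a sugar acid, Ugt1a9 (22.9 ± 10.6 to 7.39 ± 1.55 CPM), Ugt2b5 (762 ± 164 to 365 ± 20.9 CPM) and Ugt2b35 (205, 229 and 289 CPM against 120, 110 and 122) fell. Ugt1a1 and Ugt1a6b were at log2 fold changes of 0.69 and 0.95 and not called (edgeR adjusted p = 0.0668 and 0.0558). Among 15 carboxylesterases, which hydrolyse esters, Ces2a fell from 184 ± 37.7 to 82.3 ± 16.2 CPM, with a list median of -0.33.

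Of 22 genes of the antioxidant response of NRF2, a transcription factor active under oxidative stress, 3 fell and none rose (1.49% and 1.5% of all genes). The median was -0.26. The 3 were Gstm3, Gstm1 and Prdx1, a peroxiredoxin that removes hydrogen peroxide (605, 489 and 719 CPM on normal diet, 306, 264 and 284 CPM on high fat diet). Gstm3 kept its call in all 9 fits without 1 library. The other genes of the 3 lists did not; without 1 library their edgeR adjusted p reached 0.0698 (Gstm2) to 0.208 (Gstt2). Without normal diet replicate 1, 16 phase II genes were lower and 3 higher, and without 1 other vehicle library 1 to 6 were lower. With length and GC offsets 8 were lower and 3 higher, and the median was -0.32. Gsta4, Mgst1 and Ugt2b5 were then not called (edgeR adjusted p = 0.075, 0.0785 and 0.0558). Gstm and Ugt genes have near-identical relatives, and the Ugt1a genes share exons, so reads may be split between them in ways the table does not show.

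A few genes of sterol synthesis fell on high fat diet. Of 30 genes of cholesterol synthesis and uptake 4 fell and none rose (1.49% and 1.5% of all genes). The median of -0.62 was the lowest of the pathway lists. No overlap was found in 12 in the lower direction (14.8% of all genes) and in 2 in the higher (15.4%). Cyp51, the lanosterol demethylase, stood at 148, 209 and 214 CPM on normal diet and at 29.0, 82.7 and 40.1 CPM on high fat diet (3.75-fold lower, log2 fold change -1.91, SE 0.31, edgeR adjusted p = 0.00703). The high fat libraries varied more than the normal diet ones, and the highest of them was high fat replicate 2. Mvd, which makes isopentenyl pyrophosphate from mevalonate pyrophosphate, followed the same order within the high fat group, at 0.989, 6.17 and 5.02 CPM against 11.1, 15.9 and 13.1 CPM on normal diet. Msmo1, a sterol C4-methyl oxidase, fell from 305 ± 68.7 to 145 ± 58.9 CPM and Acat2, a cytosolic thiolase that makes acetoacetyl-CoA, from 61.7 ± 19.3 to 29.9 ± 6.88 CPM. Several other enzymes stood lower without being called: Dhcr7 (-0.94), Nsdhl (-1.44), Pmvk (-1.18), Tm7sf2 (-0.86) and Hmgcs1 (-0.98), with edgeR adjusted p from 0.0531 to 0.0825.

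Promoters of 3 of the 4 called sterol genes are shown, those that hold a CCAAT box. The genes are known targets of SREBP2, which acts at sterol regulatory elements beside CCAAT boxes bound by NF-Y. In the 300-base windows (RefSeq, GRCm38.p6), capitals mark CCAAT on either strand. It was found in Cyp51, Mvd and Msmo1, that is 3 of the 4 called genes, and in 37.4% of all windows.
Cyp51 (chr5:4104648-4104947, minus strand): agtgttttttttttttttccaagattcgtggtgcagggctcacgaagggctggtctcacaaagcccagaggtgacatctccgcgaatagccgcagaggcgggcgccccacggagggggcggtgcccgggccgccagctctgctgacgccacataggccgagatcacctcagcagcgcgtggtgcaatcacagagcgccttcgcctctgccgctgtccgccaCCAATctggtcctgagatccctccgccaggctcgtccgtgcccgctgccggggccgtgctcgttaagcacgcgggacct
Mvd (chr8:122443373-122443672, minus strand): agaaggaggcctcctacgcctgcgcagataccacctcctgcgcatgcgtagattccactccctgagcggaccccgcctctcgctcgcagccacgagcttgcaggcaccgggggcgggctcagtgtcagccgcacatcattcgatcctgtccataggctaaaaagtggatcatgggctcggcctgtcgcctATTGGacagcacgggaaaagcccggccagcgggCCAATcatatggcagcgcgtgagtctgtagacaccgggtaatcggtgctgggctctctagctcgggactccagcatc
Msmo1 (chr8:64733529-64733828, minus strand): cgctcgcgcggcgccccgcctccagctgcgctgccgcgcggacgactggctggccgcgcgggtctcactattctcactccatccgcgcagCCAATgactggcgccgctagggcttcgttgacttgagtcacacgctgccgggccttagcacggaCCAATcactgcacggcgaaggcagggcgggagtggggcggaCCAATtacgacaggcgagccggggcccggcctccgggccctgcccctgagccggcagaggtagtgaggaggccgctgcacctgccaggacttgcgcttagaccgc
The letters of a sterol regulatory element (TCACNCCAC) are in none of the 4 windows and in 1.24% of all windows. A match describes the letters and not a bound site.

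The length and GC offsets gave 5 lower sterol genes and a median of -0.81, and Msmo1 was then not called (edgeR adjusted p = 0.066). The number of calls in the list moved with the libraries: 10 were lower without normal diet replicate 1 and 0 to 6 without 1 other vehicle library. Cyp51 was called in 8 of the 9 fits without 1 library (edgeR adjusted p up to 0.0519), and Mvd, Acat2 and Msmo1 in 1, 1 and 2. DESeq2 called 10 of the 30 lower, and without scaling beyond library totals edgeR called 1.

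Fatty acid synthesis showed 1 call among 22 genes. Me1, the malic enzyme that supplies NADPH, stood at 48.5, 127 and 107 CPM on normal diet and at 16.8, 38.4 and 22.2 CPM on high fat diet (edgeR adjusted p = 0.0482, up to 0.278 without 1 library and 0.0923 with length and GC offsets). Fasn, the fatty acid synthase, was at 541, 725 and 417 CPM and at 219, 843 and 736 CPM, and Scd1, the stearoyl-CoA desaturase, at 3540, 6388 and 3764 CPM and at 632, 4147 and 1812 CPM. In both, high fat replicate 1 was the lowest of the 6 libraries and the diets overlapped (edgeR adjusted p = 0.902 and 0.231). Srebf1, which drives these genes, was at 186 ± 42.3 and 261 ± 57.4 CPM (edgeR adjusted p = 0.227). The list median was -0.08, and 0.09 without scaling beyond library totals.

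Both calls in triglyceride metabolism were lipin genes. Of 18 genes of triglyceride synthesis and lipolysis 2 rose and none fell (median 0.29), both of them phosphatidate phosphatases that make diacylglycerol. Lpin1 was at 268, 419 and 200 CPM on normal diet and at 839, 1017 and 1155 CPM on high fat diet (3.39-fold higher, log2 fold change 1.76, SE 0.28, edgeR adjusted p = 0.00609), and Lpin2 rose from 192 ± 31.8 to 395 ± 42.8 CPM. The third lipin gene, Lpin3, was at 3.75 ± 0.239 and 3.78 ± 1.16 CPM (edgeR adjusted p = 0.985). The lowest high fat library of Lpin1 was above the highest normal diet library. Mfsd2a, which carries lysophosphatidylcholine into cells (chr4:122946850-122961188), stood at 33.2, 42.0 and 53.3 CPM and at 110, 144 and 104 CPM (2.79-fold higher, log2 fold change 1.48, SE 0.24, edgeR adjusted p = 0.00715). Acot11, an acyl-CoA thioesterase, rose from 5.61, 6.45 and 2.63 CPM to 18, 20.8 and 18.8 CPM. Lpin1, Mfsd2a and Acot11 kept their calls in all 9 fits without 1 library, and with length and GC offsets (edgeR adjusted p = 0.00604, 0.00267 and 0.00839).

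Of 24 genes of lipid droplets and fatty acid uptake, 1 rose and 1 fell. Plin4, a perilipin that coats droplets, stood at 6.55, 7.94 and 7.33 CPM on normal diet and at 29.2, 32.6 and 16.0 CPM on high fat diet (edgeR adjusted p = 0.0293, up to 0.131 without 1 library and 0.101 with length and GC offsets). Lpl, the lipase that frees fatty acids from circulating triglyceride, stood at 19.6, 13.1 and 12.6 CPM and at 2.64, 3.76 and 2.23 CPM (5.25-fold lower, edgeR adjusted p = 0.0013), and kept its call in all 9 fits without 1 library. Adipose tissue also expresses both genes. Of the adipocyte markers, Adipoq counts were 0, 0 and 16 in the normal diet libraries and 3, 1 and 0 in the high fat libraries, and Plin1 counts 0, 0 and 10 and 2, 0 and 0. Lpl counts were 126, 79 and 91 and 16, 25 and 16. The part of adipose tissue in these values was not tested. Plin2, Cd36 and Cidec, commonly followed in fatty liver, were at log2 fold changes of -0.18, -0.16 and 0.36 (edgeR adjusted p = 0.727, 0.806 and 0.637). The median of the list was 0.00, and -0.01 with DESeq2's size factors. None of 23 lipoprotein genes was called by edgeR, with 8 under an unadjusted p of 0.05; DESeq2 called 3 lower and limma-voom none.

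In fatty acid oxidation calls went in both directions. Ppara, the transcription factor of the pathway, rose from 103, 101 and 47.2 CPM on normal diet to 212, 224 and 174 CPM on high fat diet, and Acadvl, the dehydrogenase of very long acyl chains, rose 1.78-fold. The omega-hydroxylases fell: Cyp4a12a stood at 158, 104 and 80.1 CPM and at 14, 19.4 and 25.6 CPM (5.79-fold lower, edgeR adjusted p = 5.02e-04), Cyp4a12b fell 2.91-fold and Cyp4a10 3.71-fold, from 115, 30.8 and 76.1 CPM to 17.8, 31.7 and 10.3 CPM. Cyp4a10 was called although the diets overlapped. Of 47 tested genes 2 rose and 3 fell (1.5% and 1.49% of all genes), with a median of 0.08. Cpt1a, which admits fatty acids to mitochondria, was at 422 ± 107 and 749 ± 65.3 CPM, with no overlap and no call (edgeR adjusted p = 0.0668). None of 9 ketone body genes was called by edgeR, DESeq2 or limma-voom, with 2 under an unadjusted p of 0.05. Cyp4a12a was kept in all 9 fits without 1 library. Ppara, Acadvl, Cyp4a12b and Cyp4a10 were not (edgeR adjusted p up to 0.108, 0.206, 0.135 and 0.237), and the Cyp4a genes are near-identical neighbours. Cyp4a12b and Cyp4a10 were not called with length and GC offsets (edgeR adjusted p = 0.0624 and 0.103).

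Nuclear receptor genes stood somewhat higher as a list. Of 38 receptors and coregulators 2 rose and none fell (1.5% and 1.49% of all genes), with a median of 0.40 (0.23 with length and GC offsets). Beside Ppara, the estrogen-related receptor gene Esrrg rose from 2.03, 1.82 and 0.692 CPM to 6.10, 7.22 and 6.83 CPM (4.44-fold, edgeR adjusted p = 0.0206). Ppard (1.18) and the retinoid partner Rxra (0.61) were not called (edgeR adjusted p = 0.0683 and 0.121). Among 29 genes of bile acid synthesis and transport 1 rose: Scp2, a sterol carrier and peroxisomal thiolase, from 302 ± 88.4 to 605 ± 26.4 CPM. Cyp7a1, the rate-limiting enzyme of bile acid synthesis, was at 179 ± 29.9 and 136 ± 28.2 CPM and the bile salt pump Abcb11 at 431 ± 77.8 and 267 ± 19.4 CPM (edgeR adjusted p = 0.293 and 0.0692). With normal diet replicate 1 left out, 10 receptor genes were higher, and without 1 other vehicle library none was.

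Genes of gluconeogenesis and the fasting response were among those that rose. Of 25, 4 rose and 1 fell (1.5% and 1.49% of all genes), with a median of 0.44. In the higher direction 11 had no overlap, as did 15.4% of all genes. Pck1, the cytosolic phosphoenolpyruvate carboxykinase, stood at 2958, 2255 and 1434 CPM on normal diet and at 5105, 5336 and 4408 CPM on high fat diet (2.23-fold higher, edgeR adjusted p = 0.0304). Tat, which degrades tyrosine, stood at 1204, 1068 and 785 CPM and at 3507, 2815 and 1965 CPM (2.71-fold higher, log2 fold change 1.44, SE 0.26, edgeR adjusted p = 0.0134). In both genes the lowest high fat library lay above the highest normal diet library. Foxo1 (49.1 ± 6.76 to 89.3 ± 8.01 CPM) and Foxo3 (53.6 ± 15.9 to 115 ± 13 CPM), transcription factors that insulin keeps out of the nucleus, rose too. Sdsl, a serine dehydratase, fell 2.44-fold. G6pc, whose enzyme releases free glucose, was at 624, 216 and 169 CPM and at 291, 297 and 395 CPM (edgeR adjusted p = 0.975), with normal diet replicate 1 the highest of the 6. Of the 27 insulin signalling genes 1 rose: Socs3, a feedback inhibitor of cytokine and insulin receptors, from 13.7 ± 0.966 to 39.5 ± 10.8 CPM. Insr and Irs2 were at log2 fold changes of 0.19 and 1.5 (edgeR adjusted p = 0.673 and 0.184).

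Of 35 genes of glycolysis, glucose uptake and glycogen 3 rose and none fell (median 0.32). Pfkfb3 makes the activator of phosphofructokinase and stood at 18.6, 33.9 and 13 CPM on normal diet and at 33.0, 72.3 and 94.4 CPM on high fat diet, with 1 high fat library inside the normal diet range. Slc2a4, the insulin-responsive glucose transporter of muscle and fat, stood at 0.624, 0.331 and 0.830 CPM and at 4.62, 2.56 and 5.85 CPM. Near 0 on normal diet, Slc2a4 passed the filter on low counts only through other libraries, so its call is a description. Skeletal muscle markers were at or near 0 in all 6 libraries, with none tested. Ppp1r3c, a glycogen-targeting subunit of protein phosphatase 1, rose from 39.1 ± 12.2 to 84.7 ± 29.6 CPM. None of the genes called in these 3 lists kept its call in all 9 fits. Foxo1, Sdsl, Socs3, Pfkfb3 and Slc2a4 were not called with length and GC offsets (edgeR adjusted p = 0.232, 0.0558, 0.0558, 0.0713 and 0.0558). Without normal diet replicate 1, 7, 5 and 6 genes were higher in the gluconeogenesis, insulin and glycolysis lists, and without 1 other vehicle library 0 to 2, 0 to 1 and 0 to 1.

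The clock genes that rose all encode repressors. Of 22 tested clock and clock output genes 4 rose and none fell (1.5% and 1.49% of all genes), and the median was 0.50. No overlap was found in 13 in the higher direction (15.4% of all genes) and in none in the lower (14.8%). Per1 stood at 32.4, 27.5 and 25.5 CPM on normal diet and at 78.8, 63.2 and 74.9 CPM on high fat diet (2.54-fold higher, log2 fold change 1.35, SE 0.22, edgeR adjusted p = 0.00703). Per2, its partner in repressing CLOCK and BMAL1, stood at 43.2, 27.0 and 17.4 CPM and at 64.8, 78.5 and 81.1 CPM. The normal diet libraries of Per2 were spread more widely than those of Per1, and neither gene overlapped between the diets. Nfil3, a repressor of D-box genes, rose from 32.4 ± 3.52 to 87.8 ± 27.8 CPM, and Bhlhe40, a repressor at E-boxes, from 109 ± 30.8 to 230 ± 2.28 CPM. Nr1d1 (REV-ERB alpha) was at 43.5, 27.4 and 24.3 CPM and at 63.3, 48.1 and 112 CPM, and Cry2 at 27.7 ± 6.33 and 48.0 ± 3.11 CPM (edgeR adjusted p = 0.0709 and 0.0677). Dbp, a strongly rhythmic output gene, was at 48.4 ± 11.5 and 49.1 ± 7.02 CPM (edgeR adjusted p = 0.975). No hour of collection is stated, so a difference in hour between the groups and a difference in clock gene level cannot be told apart.

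The Per1 promoter is shown because Per1 is the only clock gene called in all 9 fits without 1 library. Of the 2 Per1 windows in RefSeq (GRCm38.p6), 1 holds an E-box (CACGTG, the same on both strands), in capitals, 166 bases before the start; 7.15% of all windows hold one.
Per1 (chr11:69098699-69098998, plus strand): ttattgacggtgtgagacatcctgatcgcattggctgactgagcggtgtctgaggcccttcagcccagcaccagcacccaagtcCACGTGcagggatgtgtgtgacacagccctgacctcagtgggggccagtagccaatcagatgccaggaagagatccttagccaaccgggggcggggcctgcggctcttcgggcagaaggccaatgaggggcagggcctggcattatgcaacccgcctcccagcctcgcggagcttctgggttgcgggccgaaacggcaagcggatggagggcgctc
The window of Nfil3 holds no E-box. Clock genes called higher numbered 9 without normal diet replicate 1, and without any 1 other vehicle library 1 was.

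Targets of the glucocorticoid receptor gave the most higher calls of the lists, which were chosen with earlier results of these data known. Of 25, 6 rose and none fell (1.5% and 1.49% of all genes), with a median of 0.59. Zbtb16, a zinc finger factor strongly induced by glucocorticoids, stood at 11.8, 21.3 and 11.5 CPM on normal diet and at 76.2, 87.4 and 71.9 CPM on high fat diet (5.27-fold higher, log2 fold change 2.40, SE 0.27, edgeR adjusted p = 2.29e-04). Errfi1, a feedback inhibitor of the EGF receptor, stood at 921, 1143 and 769 CPM and at 1878, 1988 and 1746 CPM. The other called members were Lpin1, Per1, Tat and Pck1, which the lists above also hold. Fkbp5, a co-chaperone of the receptor, was at 130, 174 and 148 CPM and at 323, 325 and 160 CPM, with high fat replicate 3 inside the normal diet range (edgeR adjusted p = 0.0805). Nr3c1, the receptor gene itself, was at 84.5 ± 12.8 and 97.6 ± 16.9 CPM (edgeR adjusted p = 0.604), Hsd11b1, which regenerates active glucocorticoid, at 614 ± 168 and 358 ± 4.87 CPM (edgeR adjusted p = 0.108), and Igfbp1 at 44.8, 14.6 and 21.0 CPM and at 166, 51.0 and 49.3 CPM (edgeR adjusted p = 0.332). Zbtb16, Lpin1 and Per1 kept their calls in all 9 fits without 1 library. The list held 7 higher genes without normal diet replicate 1 and with length and GC offsets, and 3 to 4 without 1 other vehicle library.

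**Figure D4:**
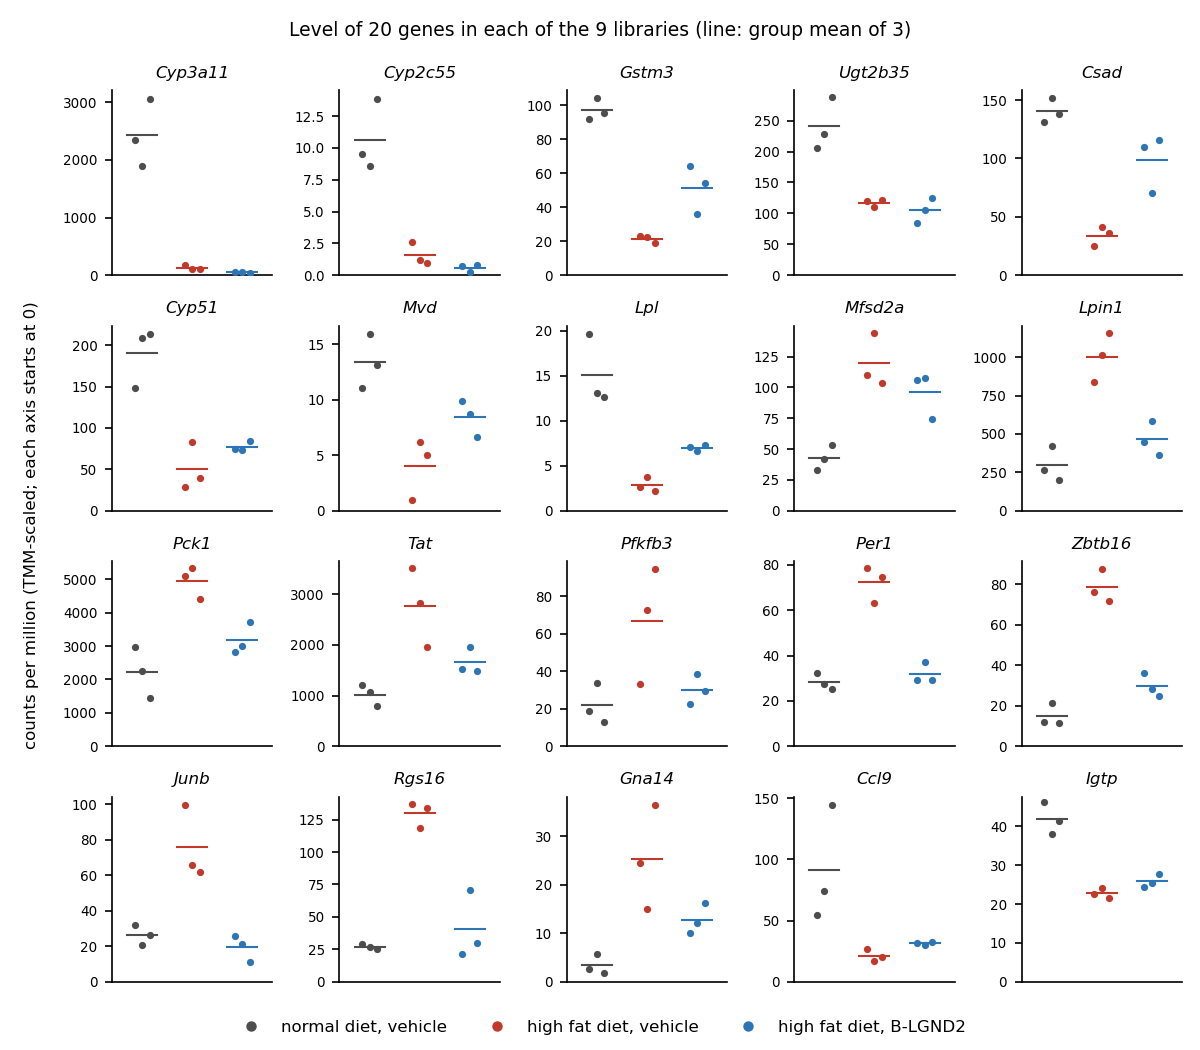
CPM of 20 genes in each of the 9 libraries (each axis starts at 0; points are libraries, lines are means of 3). For Cyp3a11, Gstm3, Csad, Lpl, Lpin1, Per1, Zbtb16 and Rgs16 the high fat vehicle libraries (red) do not overlap the normal diet libraries (grey), while for Pfkfb3 1 high fat library lies within the normal diet range.

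Immediate early genes, which are switched on within minutes by growth factors, stress or handling of tissue, had the highest median of the pathway lists, 0.69. Of 29 tested 5 rose and none fell (1.5% and 1.49% of all genes). Junb (32.0, 20.5 and 26.6 CPM on normal diet, 99.8, 65.7 and 62.2 CPM on high fat diet) and Jun (14.8, 12.1 and 8.71 CPM, 50.6, 37.7 and 20.8 CPM) encode AP-1 subunits. Zfp36l1, which destabilizes mRNAs, rose from 53.3, 17.7 and 17.1 CPM to 86.1, 94.0 and 77.4 CPM, and the antiproliferative Btg2 rose 2.33-fold. Dusp6, a phosphatase that switches off ERK, rose 2.69-fold, from 22.6, 10.6 and 21.7 CPM to 60.4, 31.3 and 56.0 CPM. High fat replicate 1 was the highest library for Junb, Jun and Btg2. Fos was at 0.425 ± 0.395 and 2.2 ± 0.277 CPM and Egr1 at 8.39 ± 2.51 and 23.8 ± 13.4 CPM (edgeR adjusted p = 0.13 and 0.138). All 5 called genes hold CCAAT in at least 1 of their 300-base promoter windows. Of all single windows 37.4% do, a share per window and not per gene, so the values are not directly comparable. Each other motif searched was in 1 of the 5 genes or in none. Zfp36l1 and Dusp6 were not called with length and GC offsets (edgeR adjusted p = 0.0523 and 0.0757). Leaving out normal diet replicate 1 gave 9 higher genes, and without 1 other vehicle library 0 to 2.

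Stress genes of the cytosol and endoplasmic reticulum changed little by call. Of 20 heat shock chaperones Bag3, a co-chaperone of HSP70, rose from 48.3 ± 10.1 to 92.4 ± 5.93 CPM, and none fell. Of 33 genes of the unfolded protein and integrated stress response edgeR called none (12 under an unadjusted p of 0.05, 3 lower by DESeq2, none by limma-voom). Xbp1, the spliced effector of IRE1, was at 593 ± 206 and 348 ± 31.3 CPM (edgeR adjusted p = 0.0867). Fgf21 and Gdf15, hormones released by stressed liver, were at 0.886 ± 0.624 and 2.75 ± 0.411 CPM and at 2.44 ± 1.59 and 4.15 ± 2.34 CPM (edgeR adjusted p = 0.169 and 0.847). Without normal diet replicate 1, 6 genes of the unfolded protein list were lower and 1 higher.

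G protein signalling showed 2 calls among 33 tested genes, both higher and both kept in all 9 fits without 1 library. Gna14, a G alpha subunit of the Gq class, stood at 2.65, 5.62 and 1.80 CPM on normal diet and at 24.6, 15 and 36.4 CPM on high fat diet (7.55-fold higher, log2 fold change 2.93, SE 0.41, edgeR adjusted p = 0.00178). Rgs16, which speeds the shutdown of Gi and Gq signals, stood at 29.0, 26.8 and 25.3 CPM and at 137, 119 and 134 CPM (4.80-fold higher, edgeR adjusted p = 0.00416). The libraries of Rgs16 were close within each diet, and those of Gna14 were spread on high fat diet. The median of all 33 was 0.02, or -0.07 with length and GC offsets. Of 36 growth factors and inhibitors Inhbb, the activin B subunit, rose from 0.973 ± 0.899 to 5.98 ± 3.05 CPM (edgeR adjusted p = 0.0361, and 0.0985 with length and GC offsets). Low on normal diet, Inhbb passed the filter on low counts through other libraries, so its call is a description. The liver activin gene Inhbe was at 105 ± 12.8 and 206 ± 82.5 CPM (edgeR adjusted p = 0.071), and Igf1 at 633 ± 116 and 407 ± 5.31 CPM (edgeR adjusted p = 0.102).

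The 15 higher and 15 lower protein-coding genes with the smallest p held further genes of varied function. Epha2, an ephrin receptor tyrosine kinase, stood at 11.1, 6.28 and 9.40 CPM on normal diet and at 35.3, 23.3 and 36.0 CPM on high fat diet (3.53-fold higher, log2 fold change 1.82, SE 0.30, edgeR adjusted p = 0.00703). Mug1, a murinoglobulin that traps proteases in plasma, stood at 539, 410 and 284 CPM and at 1054, 1214 and 1041 CPM (2.68-fold higher, edgeR adjusted p = 0.012). Both kept their calls in all 9 fits. Spry4, which dampens receptor tyrosine kinases, rose 4.38-fold, from 9.83, 7.77 and 14.3 CPM to 43.9, 40.1 and 55.5 CPM. The actin-binding Palld rose 3.97-fold, the guanine nucleotide exchange factors Dnmbp and Arhgef3 3.04- and 2.26-fold, and Scara5, a scavenger receptor for ferritin, 2.47-fold. On the lower side, Tuba1b, an alpha tubulin, fell 3.25-fold, Nme1, a nucleoside diphosphate kinase, 2.75-fold, Fkbp11, a prolyl isomerase of the secretory pathway, 2.85-fold, and S100a1, a calcium-binding protein, 2.23-fold. Htatip2 was at 33.2, 37.9 and 70.4 CPM and at 11.9, 14.1 and 14.5 CPM (3.49-fold lower, edgeR adjusted p = 0.00609) and kept its call in all 9 fits. The 9 genes named here that did not keep it had edgeR adjusted p of up to 0.0568 (Palld) to 0.0951 (S100a1) without 1 library. Spry4 and S100a1 were not called with length and GC offsets (edgeR adjusted p = 0.0555 and 0.066).

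Amino acid metabolism held 1 higher and 2 lower calls among 51 genes, with a median of 0.10. Csad, the decarboxylase of taurine synthesis, stood at 132, 152 and 138 CPM on normal diet and at 24.7, 41.1 and 36.2 CPM on high fat diet (4.13-fold lower, log2 fold change -2.04, SE 0.25, edgeR adjusted p = 5.35e-04), and kept its call in all 9 fits. Taurine is used by the liver to conjugate bile acids. The other calls were Tat and Sdsl. Cps1, which starts the urea cycle, was at 1491 ± 377 and 2362 ± 355 CPM and Arg1, which ends it, at 1785 ± 500 and 1228 ± 88.9 CPM (edgeR adjusted p = 0.21 and 0.177). Of 26 genes of iron, copper and zinc handling, the zinc importer Slc39a14 rose from 277 ± 28.0 to 547 ± 61.2 CPM and Slc39a4 fell from 68.5 ± 25.7 to 31.2 ± 7.45 CPM; with length and GC offsets Slc39a14 was not called (edgeR adjusted p = 0.0843). Hamp, the iron hormone hepcidin, was at 1308, 1607 and 4127 CPM and at 1102, 521 and 574 CPM (edgeR adjusted p = 0.0829), and the metallothionein Mt1 at 335, 562 and 1985 CPM and at 833, 438 and 88.5 CPM (edgeR adjusted p = 0.514).

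Inflammatory genes moved in both directions. Ccl9, a myeloid-attracting chemokine, stood at 54.3, 74.4 and 145 CPM on normal diet and at 26.5, 16.5 and 20.1 CPM on high fat diet (4.33-fold lower, edgeR adjusted p = 0.0038) and kept its call in all 9 fits. Tnfrsf1b, the second TNF receptor, rose from 33.4 ± 7.31 to 74.5 ± 8.34 CPM. These were the only calls of 22 chemokines, cytokines and adhesion molecules by edgeR, and Cxcl1 stood at 3.83 ± 1.36 and 14 ± 6.65 CPM (edgeR adjusted p = 0.0668). Of 34 interferon response genes 3 fell and none rose (1.49% and 1.5% of all genes). Among those that fell were the GTPases Ifi47 (53.3 ± 10.2 to 26.8 ± 4.32 CPM) and Igtp (46.3, 38.0 and 41.4 CPM against 22.6, 24.2 and 21.6). Neither GTPase overlapped between the diets. The list median was -0.06, and 0.11 without scaling beyond library totals, where no gene was called. Without 1 vehicle library other than normal diet replicate 1, at most 1 was lower, and with length and GC offsets Ifi47 and Igtp were not called (edgeR adjusted p = 0.0649 and 0.0558).

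Of 29 acute phase genes 1 rose and 2 fell. Il6ra, the interleukin 6 receptor chain, rose 2.16-fold, serum amyloid P (Apcs) fell from 98.1, 103 and 230 CPM to 41.2, 59.9 and 32.8 CPM, and Saa3 fell 3.26-fold at low level. Il6ra and Apcs were not called with length and GC offsets (edgeR adjusted p = 0.103 and 0.0873). Saa1 varied more within the diets than between them, at 150, 1487 and 3771 CPM and at 2956, 2128 and 299 CPM. Among 39 complement and coagulation genes C4b rose, from 330, 269 and 248 CPM to 571, 686 and 560 CPM (2.14-fold, edgeR adjusted p = 0.0156, up to 0.0805 without 1 library). C8b of the membrane attack complex was at 693 ± 30.7 and 429 ± 76.9 CPM, without overlap and without a call (edgeR adjusted p = 0.0695). The medians of the acute phase and complement lists were 0.07 and 0.03.

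Male-biased liver genes gave lower calls: of 24 sex-biased genes Cyp4a12a, Cyp4a12b and Mup11 fell, and Cyp2b9, higher in female liver, rose (1.49% and 1.5% of all genes). The call of Cyp2b9, near 0 in most normal diet libraries, is a description. Mup11, a major urinary protein, stood at 1024, 523 and 863 CPM on normal diet and at 318, 268 and 338 CPM on high fat diet (2.61-fold lower, edgeR adjusted p = 0.0206; 0.129 with length and GC offsets). Mup genes are near-identical copies, so their split of reads is uncertain. The list median was -0.01 and turned to 0.16 without scaling and to 0.20 with length and GC offsets. In the list of 16 growth hormone, STAT5 and IGF genes Socs3 was the only call, and Stat5b was at 47.9 ± 10.4 and 67.4 ± 8.95 CPM (edgeR adjusted p = 0.254).

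Respiratory chain and ribosomal protein genes had lower medians with few calls. Of 57 nuclear-encoded subunits of oxidative phosphorylation 2 fell and none rose, with a median of -0.54: Ndufa8 of complex I (147 ± 38.2 to 74.7 ± 8.77 CPM) and Atp5f1 of the ATP synthase (112 ± 36.7 to 52.5 ± 5.14 CPM). With length and GC offsets the median was -0.15 and no subunit was called. Of 61 cytosolic ribosomal proteins Rpl27a fell, from 19.5, 31.9 and 41.4 CPM to 16.0, 12.2 and 13 CPM, and the list median of -0.32 became -0.02 with the offsets, where Rpl27a was not called (edgeR adjusted p = 0.0655). In Uqcrq, a subunit of complex III, normal diet replicate 3, the library with the length correlation of -0.520, was far above the rest: it stood at 283, 440 and 1010 CPM on normal diet and at 261, 231 and 269 CPM on high fat diet (edgeR adjusted p = 0.0663). Without normal diet replicate 1, 22 subunits and 15 ribosomal proteins were lower, and without any 1 other vehicle library none was. Of 7 mitochondrially encoded proteins none was called by edgeR, DESeq2 or limma-voom, with 1 under an unadjusted p of 0.05. mt-Cytb stood at 25750, 6329 and 6527 CPM and at 11740, 11610 and 11750 CPM, so normal diet replicate 1 set its direction: the log2 fold change was -0.14 with that library and 0.86 without it (edgeR adjusted p = 0.0282).

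Among non-coding genes calls went in both directions and most genes were not called. Of 106 lincRNA genes 2 rose and 2 fell, as did 1 and 1 of 130 antisense genes. Both are near the shares over all genes, 1.5% and 1.49%. Of 8 miRNA genes 3 fell. CT010467.1, the model annotated as ribosomal RNA (chr17:39846353-39848827), stood at 32650, 36200 and 37600 CPM on normal diet and at 14020, 11570 and 8075 CPM on high fat diet (3.16-fold lower, edgeR adjusted p = 0.00787). The lincRNA models Gm26917 (chr17:39843013-39846341) and Gm42418 (chr17:39846958-39848788) lie beside or over it and fell 4.68- and 4.15-fold. Gm24187, Gm23935 and Gm24270, annotated as miRNA genes, fell 7.01-, 6.57- and 7.40-fold; Gm24187 stood at 1098, 1130 and 1196 CPM and at 242, 105 and 141 CPM. The antisense model Gm15564 fell 5.42-fold, and Lars2, a mitochondrial leucyl-tRNA synthetase gene, 8.47-fold, from 9304, 6022 and 6261 CPM to 1261, 670 and 619 CPM. Gm15564 was not called with length and GC offsets (edgeR adjusted p = 0.0776), and the log2 fold changes of Gm24187, Gm23935 and Gm24270 went from -2.81, -2.72 and -2.89 to -1.84, -1.68 and -1.84. The lincRNA genes that rose were Gm26697 (2.43 ± 0.878 to 9.72 ± 3.68 CPM) and Gm26518 (4.99 ± 0.817 to 13 ± 2.79 CPM), and the antisense gene that rose was B430219N15Rik (4.20 ± 0.344 to 13.8 ± 1.09 CPM). The lower genes above moved in the direction of the ribosomal RNA share, and the part of that share in their counts was not tested. Of small RNAs, Snord118 (78, 14 and 98 counts against 7, 8 and 1) and Rpph1, the RNA of RNase P (16, 13 and 23 counts against 4, 2 and 3), fell, while the mitochondrial tRNAs mt-Tq and mt-Tc rose. With the offsets Snord118 and Rpph1 were not called (edgeR adjusted p = 0.201 and 0.0663), and the log2 fold changes of mt-Tq and mt-Tc went from 2.54 and 1.82 to 4.05 and 3.18. Poly(A) enrichment does not aim at these RNAs. All of them had few counts in libraries of 1 diet and passed the filter on low counts through other libraries, so their calls are a description. Of 855 pseudogenes tested 46 fell and 9 rose, where 1.49% and 1.5% of all genes did. Reads shared by a gene and its copies may be split between them. Gapdh, which has many copies, stood at 5.34 ± 4.42 and 16.3 ± 1.66 CPM, and Gstp-ps, a copy of a glutathione transferase of the pi class, fell from 5125, 4702 and 5772 CPM to 2801, 1600 and 2443 CPM (edgeR adjusted p = 0.0655 with the offsets).

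Markers of the other cell types in liver gave no call. Over 11 lists (macrophage, endothelium, stellate cell, bile duct, lymphocyte, neutrophil, erythrocyte, hepatocyte, adipocyte, pancreas and skeletal muscle) neither edgeR nor limma-voom called a gene, 0 to 4 genes in a list were under an unadjusted p of 0.05, and DESeq2 called 1, an endothelial gene, lower. The macrophage markers summed to 464, 414 and 669 CPM on normal diet and to 431, 408 and 532 CPM on high fat diet, and the stellate cell markers to 328, 288 and 348 CPM and to 309, 320 and 350 CPM. Erythrocyte markers ranged from 127 to 576 CPM, with the highest sum in normal diet replicate 3. Clec4g of sinusoidal endothelium was at 55.2 ± 26.4 and 25.9 ± 5.27 CPM (edgeR adjusted p = 0.0573). The pancreas list had 1 tested gene, Cela1, at 35.7 ± 17.0 and 28.7 ± 4.60 CPM. In the lists of liver zones, Gstm3 and Lhpp, a phosphohistidine phosphatase (123 ± 25.3 to 52.7 ± 7.78 CPM), fell of 19 genes high around the central vein, and Pck1 rose of 18 high around the portal vein. Of 21 cell cycle genes Ccne1 fell, from 6.81 ± 2.30 to 1.66 ± 0.521 CPM (edgeR adjusted p = 0.0406, and 0.0513 with length and GC offsets).

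**Figure D5:**
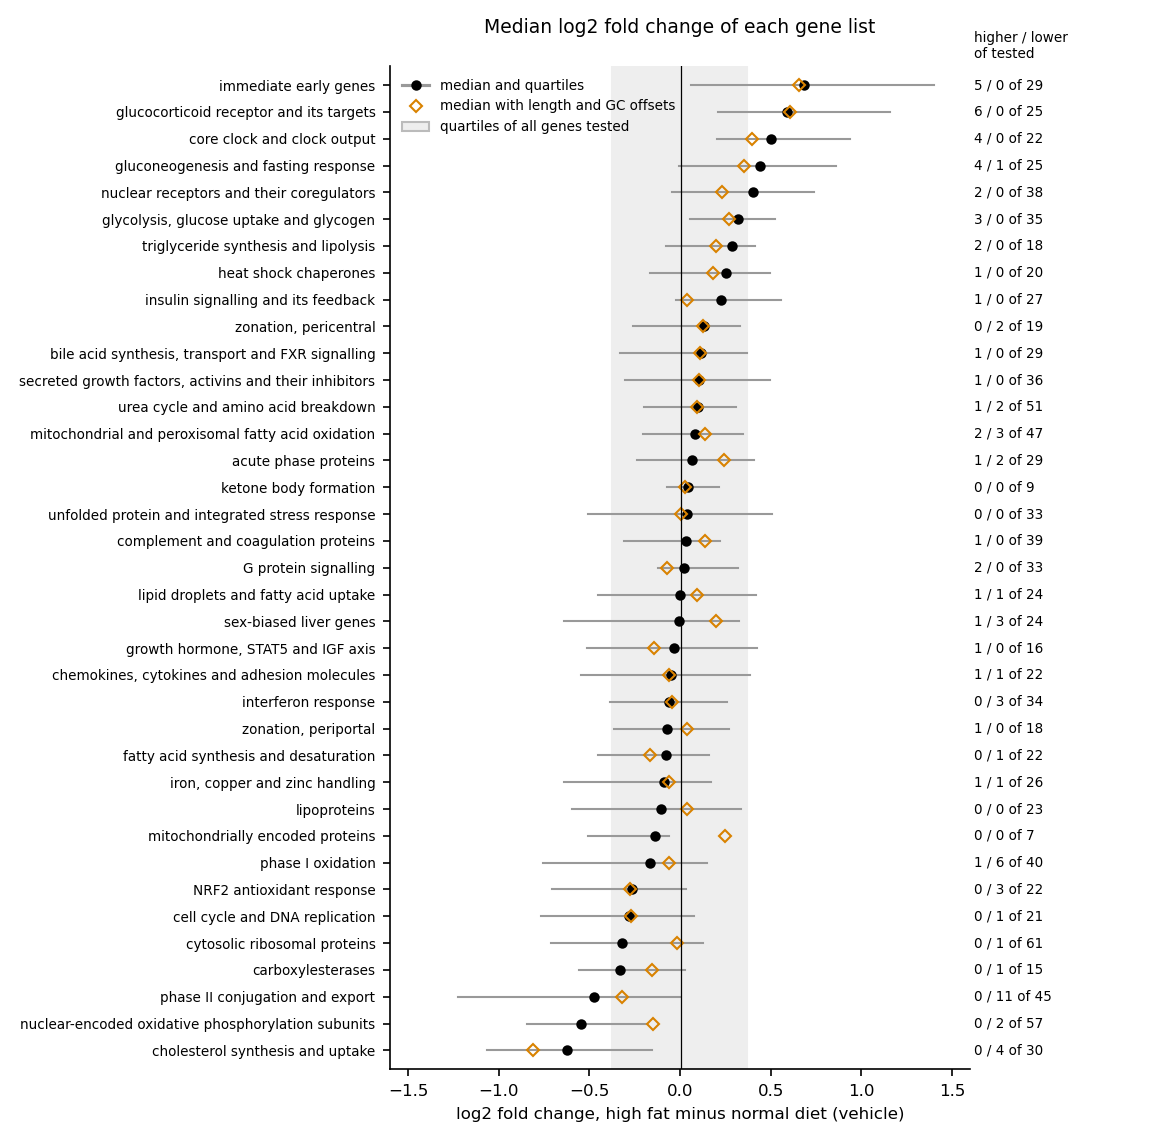
Median log2 fold change of the tested members of each pathway list (cell type markers are not plotted; black points, grey lines for quartiles) and the median with length and GC offsets (open diamonds); numbers at the right are members called higher, called lower and tested. Of these lists immediate early genes have the highest median, 0.69, and cholesterol synthesis the lowest, -0.62; the shaded band is the quartile range of all genes, -0.37 to 0.37.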

How the data were processed

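Liver RNA of 9 mice was sequenced after poly(A) enrichment on an Ion Proton, per the labels' protocols. The submitters' processing notes name GRCm38.p3, HTSeq 0.6.1p1, DESeq2 1.6.3, TopHat2 2.0.13, Bowtie2 2.2.4 and SAMtools 0.1.19. The strand setting and annotation release were not stated. The authors deposited raw counts for 45513 genes, of which 23996 had no count. Symbols, classes and lengths came from GENCODE M21, and 842 identifiers had none.

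Genes were kept with edgeR 4.0.16 (filterByExpr, minimum count 10; R 4.3.3), at least 99.7% of counts in each library, scaled by the trimmed mean of M-values and tested with the robust quasi-likelihood test over all 9 libraries (6 residual degrees of freedom, Benjamini-Hochberg threshold 0.05). SE is the absolute log2 fold change divided by the square root of F. The script was tested on simulated data. Genes with few counts in libraries of 1 diet passed the filter through other libraries, so their calls are a description. Among those named are Slc2a4, Tuba8, Cyp2c55, Cyp2b9, Inhbb, Esrrg, Mvd, Snord118, Rpph1, mt-Tq and mt-Tc. The filter, the scaling, the average log2 CPM and the spread estimate include the B-LGND2 libraries. Alternatives were other scalings and filters, DESeq2 1.42.0, limma-voom 3.58.1, 6 libraries, a replicate block, length and GC offsets (lowess span 0.3) and each library left out.

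The members and lists were chosen with earlier results of these data known, so list counts, medians and ranks are a description and no test. Named genes were the 15 higher and 15 lower called protein-coding genes with the smallest p (no overlap; average log2 CPM 3 or more), every called list member with up to 4 uncalled members of smallest p, a set of well-known genes, and called non-coding genes. The non-coding genes beyond the 3 with the smallest p each way were chosen after their values were seen. Some named genes are not reported here.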

Additional observations from a re-analysis of the deposited data

How the results depend on the processing

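The number of genes called was 362 (182 higher, 180 lower). It was 1182 (496 and 686) with no filter on low counts, 969 (393 and 576) with DESeq2, 153 (72 and 81) with only the 6 vehicle libraries, and 35 to 1860 when 1 library was left out (15 to 865 higher, 17 to 995 lower). The lowest total came without high fat replicate 1 and the highest without normal diet replicate 1, where 360 of the 362 remained; the cause was not tested. Lower calls numbered 98 without scaling beyond library totals and 118 with length and GC offsets, under which 201 of the 362 remained, and higher calls were 60.6% of 310 with limma-voom. Of the 286 named genes 93 were called, and 18 of these kept their call in all 9 fits without 1 library. The log2 fold change of mt-Cytb ranged from -0.46 without normal diet replicate 2 to 0.86, a reversal, without normal diet replicate 1. Against protein-coding counts in place of all counts, the difference in share was -2.76 percentage points for ribosomal RNA (-2.21 as reported) and -0.127 for small RNA (-0.103 as reported), because the denominator is smaller.

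The labels do not say whether same-numbered replicates share more than a number. The correlations of their deviations from the group means were -0.0976, 0.136 and 0.0073, and only number 2 correlated best with its own number. A shared cage, litter or day was not tested. With the replicate number as a block, 203 genes were called (108 higher, 95 lower), 193 of them among the 362.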

Other observations

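The gene groups and single genes here were chosen after their values were seen, so their counts support nothing. Of 6 tested enzymes of tetrahydrobiopterin, the cofactor of phenylalanine breakdown, 3 fell and 3 were not called. Pts (27.3, 28.4 and 44.8 CPM on normal diet, 17.5, 17.9 and 15.1 CPM on high fat diet), Qdpr (306, 537 and 660 CPM, 266, 233 and 219 CPM) and Pcbd1 (224, 326 and 524 CPM, 189, 164 and 173 CPM) fell. In these 3 genes normal diet replicate 3 was the highest library and normal diet replicate 1 the lowest of its group. Of 5 alpha tubulins 3 fell: Tuba1b, Tuba1c (11.1, 17.0 and 29.1 CPM, 5.44, 4.66 and 4.88 CPM) and Tuba8 (26, 16 and 27 counts, 2, 3 and 2 counts), while none of 4 beta tubulins was called by edgeR. Of 9 genes of the signal recognition particle and the Sec61 channel, which bring new secretory proteins into the endoplasmic reticulum, Srp9, Srp14, Srp19 and Sec61b fell. The median transcript lengths of these 3 groups (tetrahydrobiopterin, alpha tubulin, secretory) were 2444, 1982 and 2526 bases. Pts, Qdpr and Pcbd1 were not called with length and GC offsets (edgeR adjusted p = 0.0569, 0.0649 and 0.103), nor were Srp14 and Sec61b (edgeR adjusted p = 0.066 and 0.122).

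Of 10 feedback regulators of MAP kinase signalling Spry4, Dusp6 and Errfi1 rose, with a group median of 0.79. Spry4 and Dusp6 were not called with length and GC offsets (edgeR adjusted p = 0.0555 and 0.0757). Some genes were near 0 on normal diet and passed the filter on low counts only through other libraries, so their counts are a description with no test. Wif1, a secreted Wnt inhibitor, had counts of 1, 0 and 0 against 13, 13 and 15 on high fat diet, Ntrk2, a neurotrophin receptor, 0, 0 and 1 against 15, 6 and 22, and Myom3, a sarcomere protein, 0, 0 and 0 against 11, 12 and 11.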
